A study of Drosophila melanogaster with 72 samples.

Results

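The count tables listed 2235 copies of the transposable element INE-1, each a separate genomic insertion with its own FlyBase identifier. Of these, 940 (42.1%) reached 1 CPM (a count scaled to library size) in all replicates of some genotype at some time of day, and these 940 copies are described here. They were tested together with 12060 genes (features with an FBgn identifier) and 1767 copies of other transposable elements, 14767 features in all. The copies just inside the limit were INE-1{}6044 and INE-1{}3889, with 1.01 and 1.02 CPM as the lowest replicate of their best group, and those just outside were INE-1{}5422 and INE-1{}4339, with 0.995 and 0.994 CPM. Only 619 copies passed the limit in a control group, while 321 passed only in knockdown groups, 69 of them only in Set1 RNAi and 184 only in Trr or Trx RNAi. A copy of the last kind could pass only where it was high. In the other direction, 139 copies passed in control or Set1 RNAi groups but in no Trr or Trx RNAi group. The main counts are also given over the 619 copies that passed in the control, a choice made after seeing the data. Picking copies by their control level leans those counts towards falls, so neither set of counts is free of the limit's effect. Shares of all features are over the 14767 and were not computed for features that passed in the control.

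INE-1 is one of the most numerous transposable elements of Drosophila melanogaster, an old, short and non-autonomous element related to Helitrons, which move by a rolling-circle mechanism. Most copies are inactive remnants, and they are dense in introns, around the centromeres and on the small chromosome 4, which is largely heterochromatic. An intronic copy is transcribed as part of the precursor RNA of its host gene, so nuclear RNA holds reads from it whether or not the element has a promoter of its own.

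The samples are photoreceptor nuclei, enriched with GFP antibodies from the heads of 400 male flies per library at day 10 of adult life. All flies carried Rh1-Gal4, which is active in outer photoreceptors, with UAS-GFP-Msp300KASH, which tags the nuclear envelope of these cells, and 1 UAS-RNAi transgene inserted at attP2. The control transgene targeted mCherry, which flies lack, and the others (TRiP lines) targeted Set1, Trr or Trx, 3 enzymes that methylate histone H3 at lysine 4. Flies were kept in a daily light and dark cycle and collected at ZT0, ZT4, ZT8, ZT12, ZT16 and ZT20, where ZT0 is lights on, with 3 replicates per genotype and time point. The Set1 RNAi library of ZT20 replicate 1 held 687 counts and was left out, which left 71 libraries. Each genotype is 1 stock, so the background of a stock cannot be told apart from its RNAi target. Control and Set1 RNAi libraries were sequenced on a HiSeq and Trr and Trx RNAi libraries on a NovaSeq X Plus, so for Trr and Trx against the control the platform cannot be told apart from the knockdown. Nothing in the labels says that replicates came from separate cultures, so p-values measure the spread between these pools of flies.

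Library totals ran from 8424080 to 24586500 counts. Scaling factors (TMM) were 0.719 to 0.903 in control and Set1 RNAi and 1.12 to 1.36 in Trr and Trx RNAi. Outer photoreceptor genes (13 of 14 listed tested, none at 0 in any library) summed to a median of 87425 CPM in the control, 73281 in Set1 RNAi, 19051 in Trr RNAi and 19523 in Trx RNAi, and 0, 12 and 11 of them were lower in the 3 knockdowns. Of the lists of other cell types, 4 of 4 inner photoreceptor, 5 of 7 lens and pigment cell, 5 of 9 neuronal, 5 of 7 glial, 10 of 11 muscle, 5 of 5 fat body and 5 of 5 hemocyte genes were higher in Trr RNAi, and the same numbers in Trx RNAi. In both, 2 lens and pigment cell, 3 neuronal and 1 muscle gene were lower. In Set1 RNAi only w, Eaat1 and wupA of these lists were called, all higher. The fat body genes, for example, summed to 1725 to 4185 CPM in the control, 1543 to 3404 in Set1 RNAi, 9360 to 14960 in Trr RNAi and 7509 to 15558 in Trx RNAi, and the glial genes to 202 to 1134, 305 to 2153, 508 to 844 and 584 to 786 CPM. The muscle genes summed to 1158 to 2220, 1098 to 1919, 1290 to 3759 and 1445 to 4033 CPM. The neuronal genes summed to 7353 to 11582, 8546 to 11202, 4341 to 6935 and 3958 to 6116 CPM. The lens and pigment cell genes summed to 506 to 5487, 1427 to 6518, 408 to 618 and 390 to 659 CPM. The medians of both these sums were lower in Trr and Trx RNAi than in the control, although more of their genes were called higher than lower. In at least 1 library st, wrapper, Act88F, Tm2, Mlc1, Act57B, wupA, to, eater and NimC1 of these lists were at 0. The part of this shift in the INE-1 results was not tested, and in bulk nuclei fewer cells of a type and less RNA per cell cannot be told apart. The RNA of the targeted genes did not tell the genotypes apart, since Set1 differed by -0.03 (log2) in Set1 RNAi and trx by -0.17 in Trx RNAi, while trr differed by -0.94 in Trr RNAi and -0.86 in Trx RNAi, so genotypes stand as labelled. There were 3 libraries that stood apart. Of the 940 copies, 519 had no count in control ZT12 replicate 1 and 262 in Set1 RNAi ZT12 replicate 3, against 2 to 126 in the other 68 libraries, and the copies summed to 12741 CPM in control ZT20 replicate 3, against at most 8137 CPM elsewhere.

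INE-1 copies with signal lay mostly inside genes. Of the 940 copies, 728 were intronic, 197 outside genes and 15 overlapped an exon, which is 65.6%, 20.1% and 10.2% of the listed copies of each kind. Chromosome 4 held 256 of them (27.2%), and 74.4% of its listed copies passed, against 31.1% on 2L, 31.9% on X, 36.7% on 3L, 39.7% on 3R and 41.2% on 2R. The copies had a median length of 202 bp, from 27 to 4672 bp, against 123 bp for listed copies that did not pass. Median levels in the control were 17.5 CPM per kb for intronic copies and 6.30 CPM per kb for copies outside genes. Most copies were weakly represented, with a median control mean of 2.38 CPM, and 66 reached 20 CPM.

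The copies with the highest control levels were intronic ones in genes used by neurons, together with 1 copy outside genes. INE-1{}3385 (FBti0061446, BDGP6.46, chromosome 4: 1042174 to 1042714) lies in an intron of CaMKII, the calcium and calmodulin-dependent kinase, on the same strand, and had 88.4 CPM in the lowest, 174 in the median and 414 in the highest control library. INE-1{}4141 in nrv3, a sodium pump subunit gene, had 97.3, 127 and 510 CPM, and INE-1{}3381, also in CaMKII but on the opposite strand, had 89.2, 150 and 297 CPM. INE-1{}3224, in nrm, a gene for a cell adhesion protein, had 76.0, 107 and 273 CPM. Levels of each thus varied several-fold among control libraries before any knockdown was compared. The 940 copies summed to 4335 to 12741 CPM in the control (median 6314), 5309 to 7403 in Set1 RNAi (median 6511), 2594 to 6603 in Trr RNAi (median 4030) and 2722 to 4579 in Trx RNAi (median 3913). Without TMM scaling the medians were 4972, 5289, 4967 and 4866 CPM, so the lower medians in Trr and Trx RNAi appeared only with the scaling factors. The ranges of these sums overlapped between genotypes, except those of Set1 RNAi and Trx RNAi.

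Set1 RNAi against the control compares INE-1 copies between these genotypes within 1 sequencing platform, with the Set1 RNA itself at a difference of -0.03. At adjusted p below 0.01 and at least a 2-fold difference, 129 copies (13.7%) rose and 28 (2.98%) fell, against 7.25% and 1.66% of all features, 5.59% and 1.24% of genes and 15.2% and 3.85% of other transposable element copies. Outside genes 71 of 197 copies (36%) rose and 10 fell with a median log2 fold change of 0.52, while 57 of 728 intronic copies (7.83%) rose and 18 fell with a median of 0.05. Other transposable elements outside genes rose in 164 of 744 cases (22%). Among copies that passed in the control, 31 of 114 outside genes (27.2%) rose and 10 fell, and 15 of 497 intronic ones (3.02%) rose and 17 fell. Over the 619 copies that passed in the control, 46 (7.43%) rose and 27 fell, and of the 227 copies at 1 CPM or more in every library 1 rose and 2 fell, so most copies that rose did not pass the limit in the control. All features were not counted under these limits. The median over all 940 copies was 0.11, beside 0.01 for all features.

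**Figure D1:**
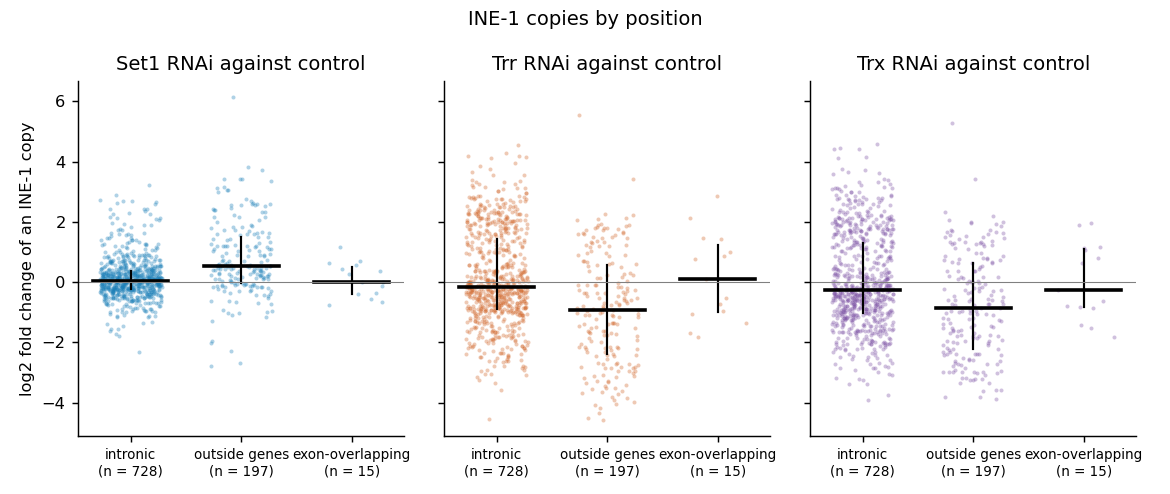
Log2 fold change of each INE-1 copy (1 point per copy) in Set1, Trr and Trx RNAi against the control, by position of the copy, with the median (horizontal bar) and quartiles (vertical bar). Copies outside genes have a median of 0.52 in Set1 RNAi, -0.91 in Trr RNAi and -0.87 in Trx RNAi, and the 3 comparisons share the control libraries.

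The copy with the largest rise in all 3 comparisons with the control was INE-1{}4121 (FBti0062182, 3L: 23289136 to 23289532, 397 bp), which lies outside genes, 1688 bp from nAChRalpha4, a nicotinic acetylcholine receptor subunit gene. It had 0 CPM in the lowest, 0.383 in the median and 1.49 in the highest control library, against 21.7, 33.3 and 36.2 in Set1 RNAi, 14.8, 20.1 and 33.1 in Trr RNAi and 15.0, 17.5 and 20.8 in Trx RNAi. Every knockdown library was above every control library. The log2 fold changes were 6.14 (SE 0.13, adjusted p = 3.41e-43), 5.53 (SE 0.13, adjusted p = 1.79e-42) and 5.29 (SE 0.13, adjusted p = 1.48e-41), all against the same control. The neighbouring nAChRalpha4 differed by 0.02 in Set1 RNAi (adjusted p = 0.89) and rose by 1.46 in Trr RNAi and 1.30 in Trx RNAi. The control RNAi line differs from the 3 knockdown lines in its stock as well as in its target, and the files cannot tell these apart for a copy that is near 0 in the control alone.

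INE-1{}4564 (3L: 17915868 to 17916008), outside genes and 3303 bp from CG5290, had 0, 0.735 and 1.62 CPM (lowest, median, highest) in the control and 1.41, 6.05 and 11.4 CPM in Set1 RNAi, so the ranges met only at their ends. It rose by 3.41 (SE 0.22, adjusted p = 2.94e-20), and CG5290 rose by 1.16. In Trr RNAi its median was 0.109 CPM, a fall of 2.18 on the log2 scale. INE-1{}3355 (3L: 23085084 to 23085209), 7981 bp from the ribosomal protein gene RpL10, had 0, 0.491 and 4.91 CPM in the control and 0.875, 7.63 and 15.0 CPM in Set1 RNAi, and rose by 2.56 (SE 0.26, adjusted p = 1.28e-12). Its control and Set1 RNAi ranges overlapped, and it was high by day and low by night in both. What made the ranges overlap was not tested. Leaving out 1 replicate number at a time gave rises of 2.26 to 3.6 for this copy.

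Among copies that averaged 5 CPM or more where they were higher and kept 1 direction at all 6 time points, the 3 largest falls in Set1 RNAi were intronic. INE-1{}3380 (chromosome 4: 1031278 to 1031394), antisense in CG11076, had 0, 6.96 and 23.8 CPM in the control and 0.141, 2.24 and 4.47 CPM in Set1 RNAi, and fell by 1.73 (SE 0.21, adjusted p = 4.18e-10). INE-1{}2323 (3L: 23738747 to 23739064), in CG17698, had 2.75, 7.09 and 14.7 CPM against 0.565, 2.39 and 3.19 CPM, and fell by 1.60 (SE 0.14, adjusted p = 2.18e-14). INE-1{}3976 (chromosome 4: 1232923 to 1233072), in Cadps, a gene for a protein that primes dense-core vesicles, had 7.12, 19.3 and 51.1 CPM against 3.14, 9.07 and 16 CPM, and fell by 1.15 (SE 0.15, adjusted p = 3.29e-09). Without the 3 libraries that stood apart the last difference was -0.91 and no longer reached the 2-fold limit. The exons of the hosts moved the same way, by -1.10 for CG11076, -1.21 for CG17698 and -0.58 for Cadps.

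By chromosome, 24 of 115 copies rose in Set1 RNAi on X, 32 of 144 on 3L, 34 of 206 on 2R, 12 of 95 on 3R, 22 of 256 on chromosome 4 and 5 of 124 on 2L, while the share of genes that rose was 5.03%, 6.2%, 5.56%, 5.66%, 6.8% and 5.33% in the same order. Over copies that passed in the control, 5 of 56 rose on X, 10 of 83 on 3L, 20 of 153 on 2R, 2 of 41 on 3R, 8 of 209 on chromosome 4 and 1 of 77 on 2L. Of the 24 on X, 18 were in a single gene, tyn. On chromosome 4 the median was -0.12, and the median of its 103 tested genes was -0.16. Outside genes, rises were found in 30 of 51 copies on 3L and 22 of 51 on 2R, but in 0 of 10 on X.

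Trr RNAi and Trx RNAi were each compared with the control across platforms. In Trr RNAi 262 copies (27.9%) rose and 249 (26.5%) fell, against 28.5% and 17.9% of all features, 30.1% and 13.8% of genes and 17.8% and 41.2% of other transposable element copies. In Trx RNAi 248 copies (26.4%) rose and 274 (29.1%) fell, against 28.5% and 18.7% of all features, 30.3% and 14.5% of genes and 17.6% and 42.1% of other transposable element copies. Over the copies that passed in the control, 52 of 619 rose and 221 fell in Trr RNAi, and 43 rose and 248 fell in Trx RNAi. No share of all features under the same limit was computed beside these counts. Of the 227 copies at 1 CPM or more in every library, 2 rose and 40.1% fell in Trr RNAi and 1 rose and 48.9% fell in Trx RNAi. The balance of rises and falls depended on the scaling. With library totals alone the median of all features moved from 0.08 to 0.71 in Trr RNAi and from 0.09 to 0.78 in Trx RNAi, and 325 copies rose and 161 fell in Trr RNAi and 325 rose and 146 fell in Trx RNAi. With 1 factor of unwanted variation as a covariate 119 rose and 328 fell in Trr RNAi and 98 rose and 348 fell in Trx RNAi. The median of the copies stayed below that of all features under each of these scalings, at -0.27 beside 0.08 in Trr RNAi and -0.35 beside 0.09 in Trx RNAi with TMM.

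Of the copies outside genes, 90 of 197 (45.7%) fell and 38 (19.3%) rose in Trr RNAi (median -0.91), and 88 (44.7%) fell and 34 (17.3%) rose in Trx RNAi (median -0.87). Of the 744 other transposable element copies outside genes, 42.5% fell and 17.9% rose in Trr RNAi (median -0.73) and 43.1% and 17.6% in Trx RNAi (median -0.71). Intronic copies were higher in 220 and lower in 155 of 728 cases in Trr RNAi (median -0.17) and higher in 209 and lower in 183 in Trx RNAi (median -0.27). Over copies that passed in the control, 64 of 114 outside genes fell and 12 rose in Trr RNAi, and 65 fell and 9 rose in Trx RNAi. Of the 497 intronic ones, 153 fell and 40 rose in Trr RNAi and 180 fell and 34 rose in Trx RNAi. The balance of the intronic copies thus depended on the limit used. Copies on 3R had a median of 0.96 in Trr RNAi, but those of them that passed in the control had -0.79.

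INE-1{}4121 again had the largest rise, with the values above, and the other copies named here averaged 5 CPM or more where they were higher. INE-1{}4741 (2L: 21644393 to 21644993), in Ac3, an adenylate cyclase gene, had 0, 1.03 and 2.45 CPM in the control and 4.75, 6.93 and 10.8 CPM in Trr RNAi, with no overlap, and rose by 2.82 (SE 0.17, adjusted p = 6.5e-23). INE-1{}4671 (3R: 4177922 to 4178499), in CG12581, had 0, 0.99 and 2.12 CPM in the control, 2.80, 6.02 and 8.25 CPM in Trr RNAi and 5.0, 6.65 and 9.33 CPM in Trx RNAi. It rose by 2.71 (SE 0.19) and 2.89 (SE 0.19) with adjusted p = 8.67e-20 and 4.55e-21, but with the unwanted-variation covariate the differences were 1.03 (adjusted p = 0.032) and 1.15 (adjusted p = 0.0206), which no longer passed the test. INE-1{}5123, in ap, the gene of the homeodomain factor Apterous, had 0.145, 2.97 and 9.26 CPM in the control and 11.4, 21.2 and 26.2 CPM in Trx RNAi, and rose by 2.70 (SE 0.15, adjusted p = 4.26e-24). The exons of Ac3, CG12581 and ap rose as well, by 2.0 in Trr RNAi, by 2.12 in Trr RNAi and 2.32 in Trx RNAi, and by 1.71 in Trx RNAi.

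At the same minimum level, the largest falls included the longest copy. INE-1{}2831 (2R: 4924644 to 4929315, 4672 bp), in an intron of Ir41a, an ionotropic receptor gene, had 0, 3.56 and 12.6 CPM in the control, 0, 0.164 and 0.80 CPM in Trr RNAi and 0, 0.278 and 0.793 CPM in Trx RNAi. It fell by 4.55 (SE 0.29, adjusted p = 3.17e-21) and 3.91 (SE 0.27, adjusted p = 7.12e-20), with its host at -3.22 and -2.69. INE-1{}5534 (chromosome 4: 408788 to 408844, 57 bp), outside genes, had 4.97, 8.72 and 45.8 CPM in the control, 0.246, 0.615 and 0.916 CPM in Trr RNAi and 0.218, 0.661 and 1.39 CPM in Trx RNAi. No knockdown library of either reached the lowest control library, and the differences were -4.06 (SE 0.21, adjusted p = 1.46e-25) and -3.89 (SE 0.21, adjusted p = 4.49e-25). INE-1{}5298, in rdgC, the gene of the phosphatase that acts on light-activated rhodopsin, had 1.16, 19.3 and 48.5 CPM in the control and 0.577, 1.59 and 2.40 CPM in Trx RNAi, and fell by 3.75 (SE 0.16, adjusted p = 4.33e-30) with rdgC at -3.30.

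INE-1{}5738 (FBti0063799, 2L: 9314832 to 9314887, 56 bp) was among the highest copies of the control and moved in opposite directions in Set1 RNAi and in the other knockdowns. It had 6.42, 43.3 and 580 CPM in the control, 40.4, 257 and 622 CPM in Set1 RNAi, 0.458, 2.35 and 17.3 CPM in Trr RNAi and 0.496, 4.68 and 26.7 CPM in Trx RNAi. It rose by 1.72 (SE 0.16, adjusted p = 8.77e-13) in Set1 RNAi and fell by 4.16 (SE 0.19, adjusted p = 9.4e-26) in Trr RNAi and 3.61 (SE 0.18, adjusted p = 8.56e-24) in Trx RNAi. The nearest tested gene, lncRNA:CR42844, 9825 bp away, moved alike, by 1.73, -3.79 and -3.27. Within genotypes its level differed widely with the time of day, described below, and replicates of a time point differed too.

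Trr RNAi and Trx RNAi, compared within 1 platform, differed in few copies. Against Trx RNAi, 3 copies (0.319%) were higher and 6 (0.638%) lower in Trr RNAi, beside 0.386% and 0.718% of all features, 0.348% and 0.506% of genes and 0.679% and 2.21% of other transposable element copies, and the median difference was 0.09. None of the 9 met the level needed to be named by rule, and they are named after their values were seen. INE-1{}4271 (2R: 5516942 to 5518716), in Ugt50B3, had 0.612, 1.10 and 1.52 CPM in Trr RNAi and 0, 0.111 and 0.241 CPM in Trx RNAi, without overlap, a log2 difference of 3.12 (SE 0.28, adjusted p = 2.13e-13). Relative to its host it was higher by 2.92, and it was the 1 copy called relative to its host between these knockdowns, where 0.789% of all intronic transposable element copies were higher and 0.303% lower (1.3% and 0.541% of those other than INE-1). Its control values were 0, 0.939 and 2.68 CPM, nearer to Trr RNAi. The other 2 higher copies were INE-1{}4405 and INE-1{}6228, and the lower ones were INE-1{}2028, INE-1{}3891, INE-1{}3895, INE-1{}4444, INE-1{}5163 and INE-1{}5966, all outside genes. Of these 9 copies, 3 higher and 4 lower ones passed in the control. Leaving out 1 replicate number at a time, which removes libraries from every group, left 1 or 2 lower copies.

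Intronic copies followed their host genes. For 724 copies (717 intronic and 7 that overlap an exon of a second gene) the exons of the holding gene passed the limit too, in 265 hosts, with 424 copies on the host's strand and 300 on the other. Per kb, a copy had a median of 0.489 of the level of its host's exons in the control, 0.522 in Set1 RNAi, 0.489 in Trr RNAi and 0.466 in Trx RNAi. Other transposable element copies in introns (n = 924) had 0.253, 0.236, 0.163 and 0.159. Copies on the same strand (control median 0.468) and on the opposite strand (0.539) were alike in level, and counting ignored strand, so sense and antisense reads cannot be told apart. Across the 724 copies, copy and host log2 fold changes had a Pearson correlation of 0.84 in Set1 RNAi, 0.89 in Trr RNAi and 0.88 in Trx RNAi, and across the 924 other copies 0.39, 0.67 and 0.64. These points share libraries and, within a host, the host, and the 3 comparisons share the control.

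**Figure D2:**
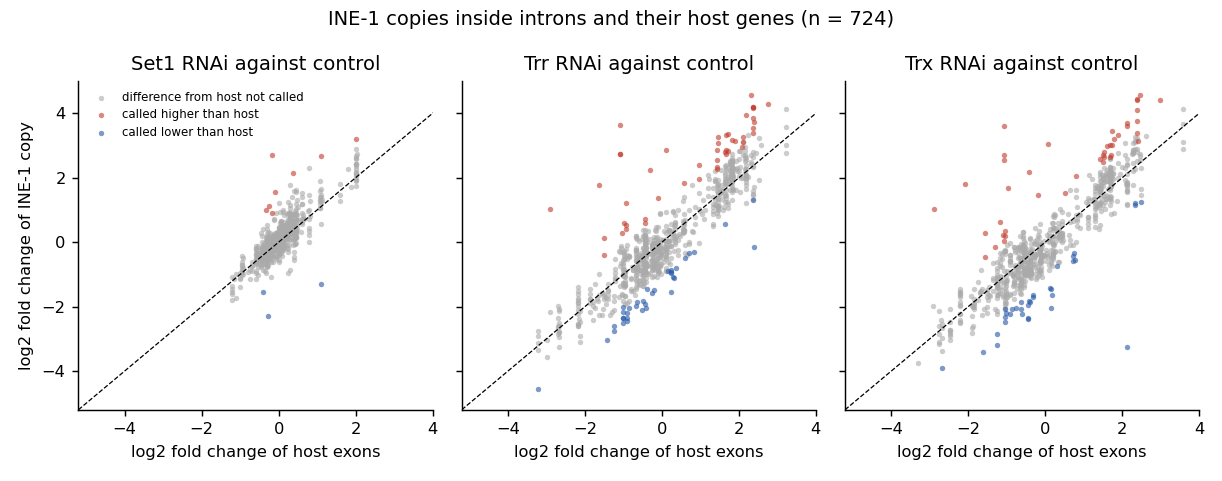
Log2 fold change of each of 724 INE-1 copies (y) against that of its host gene's exons (x) in Set1, Trr and Trx RNAi, 1 point per copy, with the line of equal change dashed. Points in colour are copies whose difference from the host passed the test, which are 8 above and 3 below in Set1 RNAi, 47 and 36 in Trr RNAi, and 42 and 34 in Trx RNAi.

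A test of each copy with its host's level as an offset called few copies. Relative to the host, 8 copies (1.10%) were higher and 3 (0.414%) lower in Set1 RNAi, against 2.12% and 4.19% of all 1648 intronic transposable element copies and 2.92% and 7.14% of the others than INE-1. In Trr RNAi 47 (6.49%) were higher and 36 (4.97%) lower, against 4.92% and 20.4% of all and 3.68% and 32.5% of the others, and in Trx RNAi 42 (5.80%) and 34 (4.70%), against 4.67% and 19.8% of all and 3.79% and 31.7% of the others. With limma on the log2 ratio the higher copies numbered 2, 26 and 25 in Set1, Trr and Trx RNAi, so these counts depended on the test used. Over the 491 copies that passed in the control, 1 was higher and 2 lower in Set1 RNAi. In Trr RNAi 8 were higher and 34 lower, and in Trx RNAi 11 and 31. Passing only in knockdown groups leans copies towards higher, and passing in the control leans them towards lower. The balance thus depended on the limit, and these counts do not show where the excess of higher copies came from.

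Among copies that averaged 5 CPM or more, the one farthest above its host was INE-1{}3410 (chromosome 4: 1061502 to 1061989), antisense in Zyx, the gene of the focal adhesion protein zyxin, and also inside apolpp, the gene of the lipoprotein precursor apolipophorin, which is made in fat body. It had 0.145, 1.59 and 3.57 CPM in the control, 4.81, 7.62 and 9.94 CPM in Trr RNAi and 4.34, 6.47 and 10.7 CPM in Trx RNAi, without overlap. Zyx itself differed by -0.32 and -0.42, and relative to Zyx the copy was higher by 2.58 (SE 0.15, adjusted p = 1.23e-24) and 2.60 (SE 0.15, adjusted p = 9.06e-25). The exons of apolpp rose by 2.53 and 2.5, beside 2.25 and 2.18 for the copy, which was not tested relative to apolpp, and reads from the 2 genes cannot be told apart. Where a copy lay in several genes the host was the shortest, and with the 22 such copies left out, a choice made after seeing the data, 46 were higher and 35 lower than the host in Trr RNAi and 41 and 32 in Trx RNAi. INE-1{}2738 in unc-13, a gene for a synaptic vesicle priming factor, and INE-1{}1944 in Slip1 were higher relative to their hosts by 1.56 and 1.45 in Trr RNAi and by 1.77 and 1.38 in Trx RNAi. Their hosts differed by -1.16 to -0.94 and the copies themselves by 0.34 to 0.63.

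Copies below their hosts included INE-1{}3917 in RhoGEF3, with 4.56, 10.7 and 20.9 CPM in the control and 1.90, 3.66 and 6.36 CPM in Trr RNAi, at -1.78 (SE 0.12, adjusted p = 2.94e-21) relative to a host that differed by 0.24. INE-1{}5517 in dati was at -1.57 and INE-1{}3380 in CG11076 at -1.60 relative to the host in Trr RNAi. In Trx RNAi, INE-1{}2613 and INE-1{}2612, both in SPoCk, the gene of a secretory pathway calcium pump, were at -1.95 and -1.59, beside -1.64 for INE-1{}3380. In Set1 RNAi the 3 lower copies, named after their values were seen, were INE-1{}2904 in fuss (-2.34), INE-1{}3958 in Kif3C and CG32017 (-2.04 relative to Kif3C) and INE-1{}2747 in unc-13 (-1.14). INE-1{}2904 fell by 1.31 while fuss rose by 1.11. The 8 higher ones were INE-1{}1864, INE-1{}3809, INE-1{}4158, INE-1{}4699, INE-1{}4898, INE-1{}5452, INE-1{}5612 and INE-1{}5936.

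Copies that share a host differed less from each other than hosts did. In the 119 hosts with at least 2 copies (578 copies), the log2 fold changes of copies within a host had an SD of 0.34 in Set1 RNAi, 0.52 in Trr RNAi and 0.55 in Trx RNAi, against an SD of 0.57, 1.54 and 1.51 between host medians. All copies of a host had the same sign in 74, 87 and 94 of the 119 hosts. Hosts with few copies can have 1 sign by chance, and no expected share was computed. Such copies share reads of 1 precursor RNA and are not independent.

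The 4 hosts shown next were chosen after their values were seen. The 18 copies in tyn (X: 140318 to 200663), the gene trynity, which encodes an apical membrane protein, summed to 4.06, 13.0 and 48.2 CPM (lowest, median, highest) in the control and 26.3, 73.7 and 106 CPM in Set1 RNAi. All 18 rose, by 1.73 to 3.21, and tyn rose by 2.02. On all of X only 5 copies that passed in the control rose in Set1 RNAi, so at most 5 of the 18 passed there. The rest could pass only in knockdown groups, where they were high. In Trr and Trx RNAi the sums had medians of 13.8 and 15.3 CPM, within the control range, and none of the 18 was called. The 6 copies in CG17698 (3L: 23737960 to 23749058), a kinase gene, summed to 14.5, 24.7 and 62.7 CPM in the control and 3.51, 9.72 and 14.4 CPM in Set1 RNAi, and all 6 fell, by 1.07 to 1.80 on the log2 scale. In Trr and Trx RNAi the medians were 21.0 and 21.2 CPM, and none of the 6 was called.

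The other 2 hosts differed in Trr and Trx RNAi. The 14 copies in nrm (3L: 22998372 to 23040300) summed to 291, 403 and 880 CPM in the control, 379, 529 and 697 CPM in Set1 RNAi, 57.2, 91.7 and 202 CPM in Trr RNAi and 63.0, 108 and 125 CPM in Trx RNAi. All 14 fell in both Trr and Trx RNAi, without overlap of the sums, and nrm fell by 2.17 and 2.2. The 18 copies in nolo (2L: 21684106 to 21729051), which encodes a secreted ADAMTS-like protein, summed to 0.435, 14.2 and 24.9 CPM in the control, 51.5, 65.8 and 99.7 CPM in Trr RNAi and 51.0, 60.2 and 70.7 CPM in Trx RNAi. All 18 rose in both, nolo rose by 1.81 and 1.67, and in Set1 RNAi, at a median of 23.9 CPM, 2 of the 18 rose. On all of 2L only 8 copies that passed in the control rose in Trr RNAi, and 8 in Trx RNAi. At most 8 of the 18 in nolo thus passed in the control, and the rest could pass only in knockdown groups, where they were high. Of the 57 intronic copies that rose in Set1 RNAi, 18 were thus in tyn, 5 in Ir41a, 4 in fuss, 4 in heph, 3 in TpnC41C, 2 in nolo and 2 in RhoGAP102A, and 19 hosts had 1 each.

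**Figure D3:**
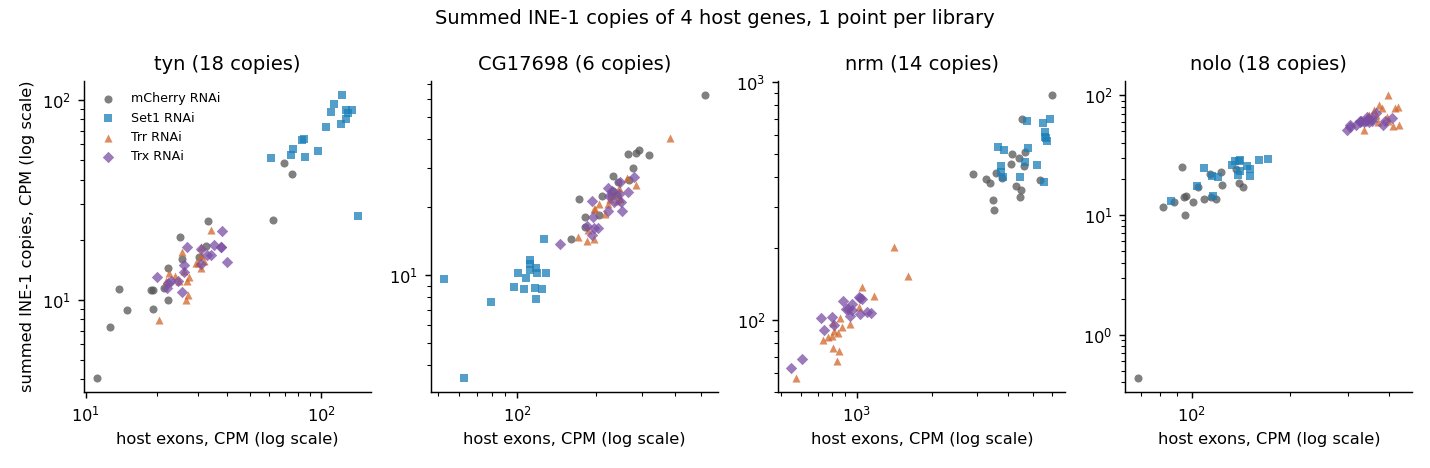
Summed CPM of the INE-1 copies of 4 host genes (y, log scale) against the CPM of the host's exons (x, log scale), 1 point per library, coloured by genotype. Set1 RNAi libraries lie up and right of the control for tyn (medians 73.7 against 13.0 CPM) and down and left for CG17698 (9.72 against 24.7 CPM), and Trr and Trx RNAi libraries lie low for nrm and high for nolo.

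Copies outside genes were compared with the nearest tested gene. The 197 copies lay a median of 1681 bp from a gene, 85 of them within 1 kb of a tested gene and 54 more than 5 kb away. Their log2 fold changes had a Pearson correlation with those of that gene of 0.62 in Set1 RNAi, 0.70 in Trr RNAi and 0.68 in Trx RNAi, and of 0.63, 0.77 and 0.72 for the 54 distant copies. These points share libraries, and neighbouring copies share a gene. Of the 71 copies that rose in Set1 RNAi, the nearest gene rose for 38, and of the 10 that fell it fell for 0. In Trr RNAi the nearest gene rose for 31 of 38 and fell for 51 of 90, and in Trx RNAi for 28 of 34 and 54 of 88.

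The time courses ask whether the copies carry a daily rhythm and whether the knockdowns change it. A 24-h cosine fit (adjusted p below 0.05) called 381 copies (40.5%) in the control, 219 (23.3%) in Set1 RNAi, 32 (3.40%) in Trr RNAi and 16 (1.70%) in Trx RNAi, against 42.5%, 34%, 5.88% and 4.02% of all features. Without control ZT12 replicate 1 the counts in Trr and Trx RNAi were 54 and 26, and without all 3 libraries that stood apart they were 83 and 31. Over copies that passed in the control the 4 counts were 316, 179, 32 and 16. With each genotype fitted alone, the control count was 178, the Trr RNAi count 72 and the Trx RNAi count 58. Leaving out 1 replicate number at a time gave 249 to 326 in the control, 126 to 188 in Set1 RNAi, 5 to 13 in Trr RNAi and 4 to 15 in Trx RNAi. Control rhythms peaked mostly at night, with 156 of 381 fitted peaks between ZT16 and ZT20 and 90 between ZT20 and ZT24. All 6276 rhythmic features had 1084 and 1399 peaks in these intervals. Peak times were not recomputed without the libraries that stood apart, which include control ZT12 replicate 1 and control ZT20 replicate 3. Copies that share a host are not independent peaks. In Set1 RNAi peaks were spread, with 15 to 48 copies in each 4-h interval. Median amplitude, from trough to peak on the log2 scale, was 1.54 in the control and 1.54 in Set1 RNAi, against 1.12 and 1.13 for all rhythmic features.

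**Figure D4:**
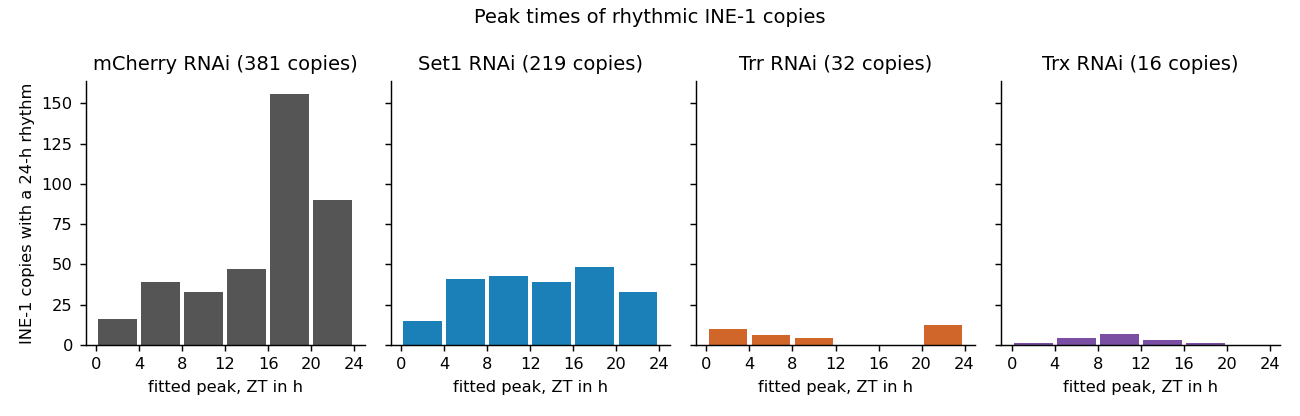
Number of INE-1 copies with a 24-h rhythm by fitted peak time in 4-h intervals, in the control (mCherry RNAi) and each knockdown. The control peaks in the interval from ZT16 to ZT20 with 156 of 381 copies, while the 219 copies of Set1 RNAi are spread over the day and Trr and Trx RNAi have 32 and 16 copies.

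Most rhythmic intronic copies with a rhythmic host peaked within 2 h of it. Of the 381 rhythmic copies in the control, 291 had a tested host, and for 54 of these the host was not called rhythmic. For the other 237 the 2 peaks differed by a median of 1.23 h, with 157 within 2 h. The share that unrelated features would reach was not computed. The lowest p was that of INE-1{}5649 (2L: 7232881 to 7233224), antisense in Ndae1, a sodium-driven anion exchanger gene. Its control means were 19.7 ± 8.34 CPM at ZT0, 3.84 ± 2.74 at ZT4, 2.39 ± 0.589 at ZT8, 1.47 ± 0.727 at ZT12, 15.4 ± 3.38 at ZT16 and 34 ± 11.9 at ZT20 (SD, n = 3). It peaked at 20.6 h with an amplitude of 4.50 (edgeR, adjusted p = 6.04e-19), and Ndae1 peaked at 20.6 h with an amplitude of 3.93. In Trx RNAi it stayed between 6.25 and 11 CPM at all time points, and the rhythm differed from the control (edgeR, adjusted p = 4.28e-10), as did that of Ndae1 (edgeR, adjusted p = 6.23e-11).

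The next 3 copies lie in EcR, the gene of the ecdysone receptor. INE-1{}6235 (2R: 6161620 to 6161969) had control means of 9.0 ± 2.14 CPM at ZT0, 0.299 ± 0.347 at ZT12 and 12.2 ± 3.21 at ZT20 (SD, n = 3), 5.32 ± 0.73, 0.758 ± 0.666 and 8.43 ± 1.47 in Set1 RNAi (n = 3, 3 and 2), and 2.04 to 2.71 CPM across the day in Trr RNAi. INE-1{}6235, INE-1{}6234 and INE-1{}6239 peaked at 20.8, 20.7 and 20.5 h in the control with amplitudes of 5.52, 5.18 and 5.58. EcR's exons peaked at 20.4 h with an amplitude of 2.39. At ZT12 the 6 copies in EcR summed to 0, 4.34 and 3.79 CPM in control replicates 1 to 3, and replicate 1 stood apart. The exons were at 101 to 716 CPM in the control, so the larger amplitudes of the copies rest on counts near 0. By the same test the rhythm of INE-1{}6235 differed from the control in both Trr RNAi and Trx RNAi, with edgeR adjusted p = 9.51e-13 and 3.86e-11, and that of INE-1{}6234 in Trr RNAi (edgeR, adjusted p = 1.8e-10). Their mean levels were not called different in Trr or Trx RNAi, with log2 differences from -0.85 to 0.07.

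INE-1{}5738 peaked by day in all 4 genotypes, at 7.15 h in the control, 7.79 h in Set1 RNAi, 6.83 h in Trr RNAi and 7.79 h in Trx RNAi. Its means at ZT4 were 379 ± 195, 588 ± 29.8, 12.1 ± 6.43 and 17.0 ± 8.81 CPM in the same order (SD, n = 3). At ZT0 they were 7.95 ± 2.35, 47.6 ± 9.41, 0.846 ± 0.391 and 0.703 ± 0.19 CPM, and a test of the time course found no difference from the control in Set1, Trr or Trx RNAi (edgeR, adjusted p = 0.477, 0.457 and 0.404), which does not show that the time courses were alike.

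Rhythms differed from the control in 22 copies (2.34%) in Set1 RNAi, 174 (18.5%) in Trr RNAi and 109 (11.6%) in Trx RNAi, against 3.58%, 20.9% and 17.5% of all features. Of these, 167 in Trr RNAi and 107 in Trx RNAi were rhythmic in the control. Amplitude was lower in 168 of the 174, from a median of 1.41 to 0.54, and in 108 of the 109, from 1.86 to 0.40. These copies were picked for a differing rhythm, and nearly all were rhythmic in the control, so lower amplitudes were largely set by that choice. The same share over all features that differed was not computed. In Set1 RNAi 13 had a lower and 9 a higher amplitude. Over copies that passed in the control the counts were 10, 154 and 93, and with control and Set1 RNAi fitted alone the Set1 RNAi count was 1. Leaving out 1 replicate number at a time gave 1 to 12 in Set1 RNAi. The host's rhythm differed too for 82 of 145 copies with a tested host in Trr RNAi, 54 of 85 in Trx RNAi and 1 of 14 in Set1 RNAi.

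**Figure D5:**
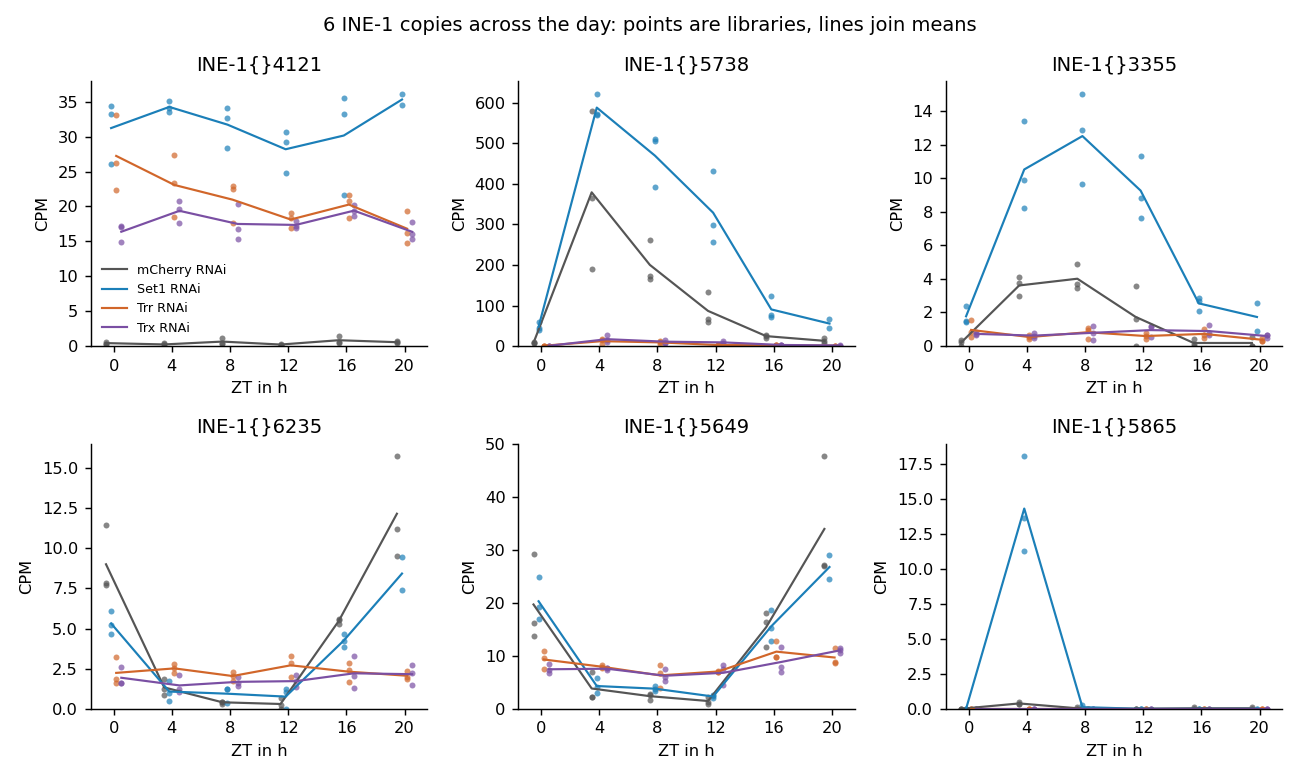
CPM of 6 INE-1 copies against ZT in hours, 1 point per library, coloured by genotype, with lines joining the means. INE-1{}4121 is near 0 in all control libraries and above 14 CPM in every knockdown library, INE-1{}5738 and INE-1{}3355 are high by day, INE-1{}6235 and INE-1{}5649 are high at night in control and Set1 RNAi only, and INE-1{}5865 appears at ZT4 in Set1 RNAi.

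Genes that act on transposable elements were looked at beside the copies. Of 20 heterochromatin genes, all tested, none was called in Set1 RNAi, D1, which encodes a satellite-binding protein, rose in Trr RNAi (1.44) and Trx RNAi (1.28), and Kdm4A, a demethylase gene, fell in Trr RNAi (-1.02). Of 20 small RNA silencing genes, 17 were tested. In Set1 RNAi arx fell (-1.5), in Trr RNAi spn-E (2.47), AGO3 (1.44), Hen1 (1.15) and aub (1.08) rose, and in Trx RNAi spn-E (2.32), AGO3 (1.43) and Hen1 (1.28) rose. All these genes except D1 and Kdm4A were low, with medians of at most 5.92 CPM in any genotype, and AGO3 is itself the host of 5 of the INE-1 copies. Of all genes tested, 30.1% rose and 13.8% fell in Trr RNAi, 30.3% and 14.5% in Trx RNAi, and 5.59% and 1.24% in Set1 RNAi. In Trr and Trx RNAi, rises in both lists were thus no more frequent than among all genes.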

How the data were processed

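Nuclear RNA was depleted of ribosomal RNA and sequenced in 72 libraries (4 genotypes, 6 time points, 3 replicates). The authors trimmed reads with cutadapt 3.7 and Trimmomatic 0.39, aligned them with HISAT2 2.2.1 and counted them with featureCounts 2.0.1 on Ensembl release 111 (BDGP6.46). The deposited values are raw counts of reads per gene or transposable element copy, without strand and without reads that map to several places, so near-identical copies are undercounted and unspliced host reads over an intronic copy count for the copy. Library totals were 8424080 to 24586500 counts. Names matched for 23751 of 24278 features. Counts were tested with edgeR 4.0.16 in R 4.3.3 (quasi-likelihood, TMM scaling, 24 groups, Benjamini-Hochberg adjustment over all 14767 features), as contrasts of the mean over 6 time points (adjusted p below 0.01, absolute log2 fold change of at least 1) and as 24-h cosine terms (adjusted p below 0.05). For tests relative to the host, the host's CPM plus 0.5 was the offset, over 1648 intronic copies. All log2 fold changes are fitted values, and CPM are TMM-scaled. The pipeline was tested on simulated counts. Samples were grouped by their labels. Copies named are the 3 largest rises and falls of each knockdown with at least 5 CPM, the 5 highest in the control, the lowest rhythm p-values and the extremes relative to the host, with exceptions stated. The members, gene lists and tests were chosen with earlier results of these data known. Alternatives were DESeq2 1.42.0, limma 3.58.1, other scalings, filters and samples.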

Additional observations from a re-analysis of the deposited data

Results flagged for a closer look

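Results are given here where a knockdown's time course differed from the control by a test of the difference itself (edgeR, adjusted over all features). INE-1{}3647 (3R: 4278961 to 4279224), outside genes and 449 bp from lncRNA:CR45597, differed in Set1 RNAi (edgeR, adjusted p = 0.00161). Its control means ran from 1.24 CPM at ZT12 to 7.49 CPM at ZT20, and its 3 Set1 RNAi values at ZT12 were 4.85, 3.50 and 11.6 CPM, the last in 1 of the libraries that stood apart. INE-1{}5865 (3R: 6680824 to 6680868, 45 bp), 2234 bp from lab, the homeotic gene labial, also differed in Set1 RNAi (edgeR, adjusted p = 0.00247). With control and Set1 RNAi fitted alone only 1 copy differed in Set1 RNAi, so at most 1 of INE-1{}3647 and INE-1{}5865 did. At ZT4 INE-1{}5865 had 18.1, 13.7 and 11.3 CPM in Set1 RNAi and 0.332, 0.344 and 0.475 CPM in the control. It was at 0 in all Trr and Trx RNAi libraries. It thus passed the limit of 1 CPM in Set1 RNAi at ZT4, where it was high, and in no Trr or Trx RNAi group. Whether it passed in the control at another time of day is not given here. If it did not, the limit itself leaned its time course in Set1 RNAi towards a difference. The gene lab moved with INE-1{}5865. The mean of lab at ZT4 was 686 ± 99.4 CPM in Set1 RNAi and 31.6 ± 29.4 CPM in the control (SD, n = 3). At the other time points of Set1 RNAi lab was at most 25.0 CPM on average. INE-1{}6235 in EcR differed in both Trr RNAi and Trx RNAi, with edgeR adjusted p = 9.51e-13 and 3.86e-11, INE-1{}6234 in EcR in Trr RNAi (edgeR, adjusted p = 1.8e-10) and INE-1{}5649 in Ndae1 in Trx RNAi (edgeR, adjusted p = 4.28e-10). For these 3 copies the night maximum of the control was absent, and the fitted amplitude was lower.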

How the results depend on the processing

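Of 449 recomputed values for single copies, 446 kept their direction and their side of the threshold, 3 no longer passed (INE-1{}3976 in Set1 RNAi and INE-1{}4671 in Trr and Trx RNAi, given above) and 0 reversed, and of 350 recomputed counts 287 stayed within 1.5 times. Where no cause is given below, it was not tested. With 1 CPM required of every feature in every library and the model refitted, which left 227 copies (the counts above for these copies come from the fit to all features), 1 rose and 2 fell in Set1 RNAi, 5 and 71 in Trr RNAi, 3 and 81 in Trx RNAi and 0 and 0 between Trr and Trx RNAi, rhythms numbered 134, 75, 21 and 1 in control, Set1, Trr and Trx RNAi, and 8, 106 and 64 differed from the control. With a mean of 1 CPM (744 copies) 71 rose and 17 fell in Set1 RNAi, and 3 were lower in Trr than in Trx RNAi. Without a filter (2036 copies) 474 rose in Trr RNAi, 444 in Trx RNAi and 12 were higher in Trr than in Trx RNAi. With 1 factor of unwanted variation 119 rose in Trr RNAi and 98 in Trx RNAi, so 26.6% and 22% of called copies were higher instead of 51.3% and 47.5%. With library totals only, chosen after seeing the data, 161 fell in Trr RNAi and 146 in Trx RNAi, and 66.9% and 69% were higher. Over copies that passed in the control, also chosen after seeing the data, 46, 52 and 43 rose in Set1, Trr and Trx RNAi, and 10 rhythms differed in Set1 RNAi. With genotypes fitted alone or in pairs, rhythms numbered 178 in the control, 72 in Trr RNAi and 58 in Trx RNAi, and 1 and 106 differed in Set1 and Trr RNAi. A test of any difference among time points gave 55 rhythms and 269 differences in Trr RNAi. Without control ZT12 replicate 1, rhythms numbered 283, 54 and 26 in Set1, Trr and Trx RNAi and 218 differed in Trr RNAi, and without the 3 libraries that stood apart 83 and 31 in Trr and Trx RNAi, both chosen after seeing the data. With limma on the ratio to the host 2, 26 and 25 copies were higher in Set1, Trr and Trx RNAi, and 55 were lower in Trx RNAi. With replicates or single libraries left out, 1 to 6 copies were lower in Trr than in Trx RNAi, rhythms ranged from 249 to 417 in the control, 126 to 286 in Set1 RNAi, 5 to 83 in Trr RNAi and 4 to 31 in Trx RNAi, differing rhythms from 1 to 30 in Set1 RNAi, 47 to 255 in Trr RNAi and 39 to 140 in Trx RNAi, and copies lower than their host in Set1 RNAi from 3 to 5. Samples with equal replicate numbers were treated as unpaired. Correlations of same-numbered deviations passed 0.1 in 4 of 17 pairs for Set1 RNAi, 2 of 18 for Trr RNAi and 1 of 18 for Trx RNAi. Between Trr and Trx RNAi 3 of 18 did. The highest was 0.472, for Set1 RNAi and control at ZT0 replicate 1, and the medians were at most 0.0239. These values do not exclude pairing. The replicate block gave 128 higher and 27 lower copies in Set1 RNAi, 264 and 246 in Trr RNAi and 249 and 274 in Trx RNAi, and moved no count by over 1.5 times.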
